A study of Homo sapiens with 4 samples.

Results

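The 10 genes described here encode the cyclins, kinases and inhibitors that govern the G1 phase of the cell cycle: the D-type cyclins CCND2 and CCND3, their kinases CDK4 and CDK6, the E-type cyclins CCNE1 and CCNE2, their kinase CDK2, the KIP inhibitor CDKN1B and the INK4 inhibitors CDKN2C and CDKN2D. They were chosen by symbol, each matched 1 Ensembl identifier, and they are 10 of the 64252 identifiers in the table. Earlier results of these data were known when they were chosen, so the share of them called is no independent test. RNA was sequenced from J.gamma1, an established line that derives from Jurkat, from a human T-ALL (acute lymphoblastic leukemia of T cells), and lacks phospholipase C gamma 1, a defect that all libraries share. Cells of 1 group carried a control hairpin RNA (shNC, 2 libraries) and those of the other a hairpin against the fatty acid elongase gene ELOVL5 (shELOVL5, 2 libraries). The sources used here do not give the hairpin sequence, the number of hairpins or clones, or whether replicates were separate cultures, so that the p-values reflect the spread of these libraries alone, which may be technical.

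D-type cyclins bind CDK4 or CDK6 and start the phosphorylation of the retinoblastoma protein, which releases E2F transcription factors. Cyclin E with CDK2 then completes this step and drives entry into S phase. INK4 proteins bind CDK4 and CDK6 and block them, while KIP proteins act mainly on CDK2 complexes. In developing T cells cyclin D3 and CDK6 are the characteristic D-type cyclin and kinase, and both have been studied as dependencies of T-ALL cells.

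In shELOVL5 cells the transcripts of CCND3, CDK6 and CDKN2D rose, by 1.18-fold to 1.40-fold in mean level, and those of CDK2 and CCNE2 fell. CCND2, CDK4, CCNE1, CDKN1B and CDKN2C did not pass the test. All 10 genes passed the filter on low counts, so 3 of 10 were called higher and 2 lower, against 9.22% and 11.2% of all 17461 tested genes and 20.4% in either direction. Calls are Benjamini-Hochberg adjusted p-values under 0.05 over all tested genes from edgeR's quasi-likelihood test, and this is the test behind each adjusted p given here. The median log2 fold change was -0.036 over the 10 genes and 0.0062 over all tested genes. For 8 of the 10 genes the levels of the 2 groups did not overlap, beside 60.1% of all tested genes.

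Total counts lay between 16254002 and 17338719 per library. ELOVL5 had 5816 and 5664 counts in shNC and 1255 and 1157 in shELOVL5. Replicates differed by more than sampling noise (chi-square per degree of freedom of 5.42 and 5.78 within groups and 24.8 to 27.3 across them). The 12 T cell marker genes summed in every library to 2001 to 2038 CPM (counts relative to library size, TMM-scaled). Within that level sum 3 of the 12 rose (LAT, CD3E and CD3G, log2 fold changes of 0.70, 0.32 and 0.25) and 5 fell (TRAC, CD247, CD3D, ZAP70 and LCK, -0.41 to -0.17). With any 1 library left out 2 rose and 3 or 4 fell. Myeloid markers summed to 1.00 to 1.68 CPM. Erythroid markers summed to 2.12 CPM in both shNC libraries and to 0.744 and 0.787 CPM in shELOVL5, with HBB and ALAS2 at 0 counts, and KLF1 fell from 18 counts in each shNC library to 4 in each shELOVL5 library (log2 fold change -2.18, adjusted p = 0.0499). KLF1 did not pass whichever of the 4 libraries was left out (adjusted p = 0.189 to 0.224). Epithelial and fibroblast markers summed to 11.3 to 12.9 CPM, with EPCAM, CDH1, COL1A2, COL3A1 and DCN at 0 counts. Most of that sum came from COL1A1 (96 and 62 counts in shNC, 132 and 111 in shELOVL5) and KRT8 (89 and 92 against 66 and 66). Levels of both did not overlap between groups, and neither passed (log2 fold changes 0.58 and -0.50, adjusted p = 0.16 and 0.224). B cell markers summed to 57.8 and 65.0 CPM in shNC and 41.4 and 44.4 CPM in shELOVL5, mostly from CD79A and BLK, with MS4A1, PAX5 and CD22 at 5 counts or fewer, and CD79A fell (log2 fold change -0.65, adjusted p = 0.00267). Some markers of T cells, B cells and erythroid cells thus moved with the group, and whether this bears on any value below was not tested.

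**Figure D1:**
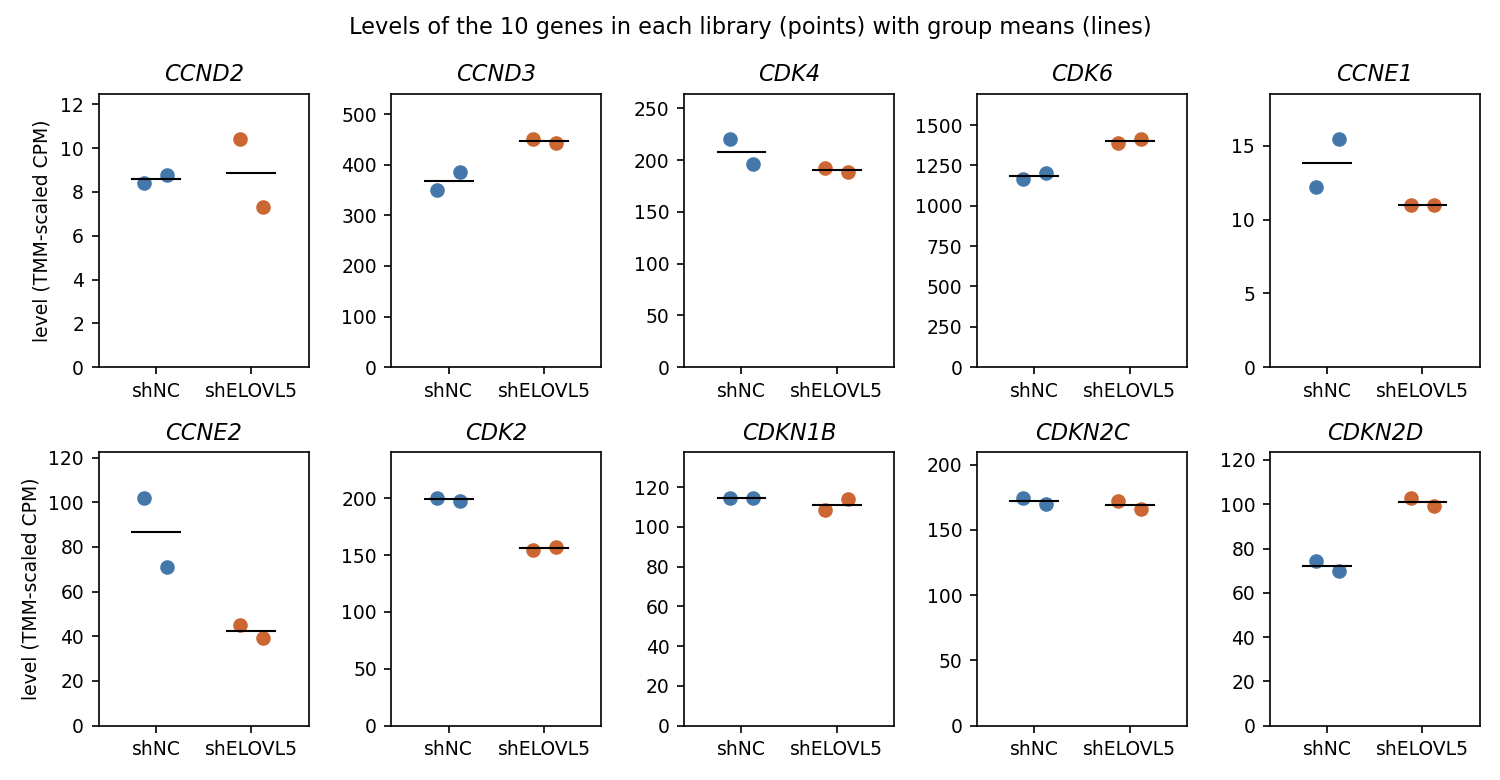
Level of each of the 10 genes (y axis, TMM-scaled CPM, starting at 0 in each panel) in the 2 shNC and 2 shELOVL5 libraries (points), with group means (lines). CCND3, CDK6 and CDKN2D lie higher in both shELOVL5 libraries, CDK2 and CCNE2 lie lower, and the points of CCND2 and CDKN2C overlap between groups.

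Promoter sequences are shown for the 3 genes that rose together and for CDK4, the paralog of CDK6 that did not pass. Each is the stretch of 250 bases before the RefSeq start nearest to the principal transcript of GENCODE release 29, 5′ to 3′ on the gene's strand, build GRCh38.p14. The RefSeq start lay 40 bases from the principal start for CCND3, 21 for CDK6, 1 for CDKN2D and 211 for CDK4. All 4 genes lie on the minus strand: CCND3 at chr6:41941809-41942058, CDK6 at chr7:92836574-92836823, CDKN2D at chr19:10568980-10569229 and CDK4 at chr12:57752311-57752560. RefSeq promoter windows were searched for 7 of the 10 genes. The sources used here held no window for CCND2 or CDK2, and CCNE2 was left out of the search, so its promoter was not examined. Capitals mark matches, on either strand, to the E-box CACGTG bound by MYC and related factors, the CCAAT box CCAAT, the GC box GGGCGG, the FOXO site GTAAACA and the E2F sites TTTGGCGC, TTTCGCGC, TTTCCCGC and TTTGCCGC.
CCND3: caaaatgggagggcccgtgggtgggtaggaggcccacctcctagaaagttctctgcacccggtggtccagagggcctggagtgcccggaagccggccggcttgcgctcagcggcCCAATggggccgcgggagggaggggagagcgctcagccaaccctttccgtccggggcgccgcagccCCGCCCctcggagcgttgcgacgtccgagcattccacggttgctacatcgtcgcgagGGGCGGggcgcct
CDK6: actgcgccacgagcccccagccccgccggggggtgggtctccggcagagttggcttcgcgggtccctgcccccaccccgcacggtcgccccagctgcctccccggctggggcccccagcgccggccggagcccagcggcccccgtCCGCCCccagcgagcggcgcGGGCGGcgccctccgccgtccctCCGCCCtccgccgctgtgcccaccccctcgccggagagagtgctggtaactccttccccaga
CDKN2D: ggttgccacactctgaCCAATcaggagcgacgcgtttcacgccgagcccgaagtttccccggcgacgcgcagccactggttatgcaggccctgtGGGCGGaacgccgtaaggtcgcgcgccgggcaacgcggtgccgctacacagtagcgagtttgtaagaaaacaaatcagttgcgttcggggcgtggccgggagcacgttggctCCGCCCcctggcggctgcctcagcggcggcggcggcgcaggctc
CDK4: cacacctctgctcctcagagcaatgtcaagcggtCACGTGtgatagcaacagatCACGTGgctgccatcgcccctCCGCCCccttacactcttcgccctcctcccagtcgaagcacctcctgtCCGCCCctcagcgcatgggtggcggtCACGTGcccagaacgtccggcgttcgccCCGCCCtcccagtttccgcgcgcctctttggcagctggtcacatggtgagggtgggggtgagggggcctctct

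The CDK4 window held 3 E-boxes, where 6.32% of 34943 RefSeq windows of this length held at least 1 and 0.0801% held at least 3. CCND3, CDK6 and CDKN2D had no E-box there, and none of the 4 windows held an E2F or FOXO match, which 2.77% and 2.98% of windows did. Of the windows not printed, that of CDKN2C held 1 E-box and those of CCNE1 and CDKN1B held 0. CCND3 and CDKN2D each held 1 CCAAT box (32.0% of windows held at least 1), and GC boxes, present in 42.5% of windows, numbered 2 in CCND3, 3 in CDK6, 2 in CDKN2D and 3 in CDK4. GC content was 71.2%, 80.0%, 67.6% and 65.6% in the order printed. These matches describe letters only. No motif considered was common to the 3 genes that rose apart from the GC box. It was not particular to them: CDK4 held 3, CCNE1 7 and CDKN1B 1, and these genes did not pass. CDKN2C held 0 GC boxes, and CDKN1B held 2 CCAAT boxes. The windows of CDK2 and CCNE2, which fell, were not examined. No binding was measured.

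CCND3 (ENSG00000112576, GRCh38 chromosome 6, 41934933 to 42050357) encodes cyclin D3. Its counts were 5961 and 6178 in shNC and 7875 and 7317 in shELOVL5, or 351 and 385 CPM against 451 and 443 CPM. Both shELOVL5 libraries were above both shNC libraries. Levels averaged 368 ± 24.1 and 447 ± 5.52 CPM in the control and knockdown groups (SD, n = 2), and the log2 fold change was 0.28 (SE 0.048, adjusted p = 0.00223). Leaving out single libraries gave 0.21 to 0.34, and the call held each time. CCND2 (ENSG00000118971, chromosome 12, 4273772 to 4305350), which encodes cyclin D2, was scarce, with 143 and 141 counts in shNC and 182 and 121 in shELOVL5. The shELOVL5 libraries lay on either side of the shNC libraries (log2 fold change 0.045, 95% interval -0.47 to 0.56, adjusted p = 0.921). Its direction turned without shELOVL5 replicate 1 (log2 fold change -0.24). Part of its exons (13.8%) also belongs to AC008012.1, which was not analysed here. The pseudogene copies CCND2P1, CCND3P1, CCND3P2 and CDK4P1 had 0 counts in each library.

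CDK6 (ENSG00000105810, chromosome 7, 92604921 to 92836594) encodes the D-cyclin kinase typical of T cells and gave the highest counts of the 10 genes. It had 19819 and 19333 counts in shNC and 24258 and 23342 in shELOVL5, or 1167 and 1205 CPM against 1388 and 1413 CPM. The groups were apart by more than their spread, at 1186 ± 26.9 and 1400.4 ± 17.4 CPM (log2 fold change 0.24, SE 0.033, adjusted p = 0.000586). This is close to the median size of change, 0.24 on the log2 scale, over all tested genes without regard to direction. CDK4 (ENSG00000135446, chromosome 12, 57747727 to 57756013), the other D-cyclin kinase gene, had 3742 and 3144 counts in shNC and 3357 and 3120 in shELOVL5. Its levels of 220 and 196 CPM in shNC lay above 192 and 189 CPM in shELOVL5, but the lowest shNC library was close to the highest shELOVL5 library (log2 fold change -0.13, 95% interval -0.26 to 0.00089, adjusted p = 0.156). Without shNC replicate 2 it passed as lower (log2 fold change -0.22, adjusted p = 0.0179), and without shNC replicate 1 its log2 fold change was -0.044.

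CCNE2 (ENSG00000175305, chromosome 8, 94879770 to 94896678) encodes cyclin E2 and showed the largest log2 fold change of the 10 genes. Its counts were 1734 and 1138 in shNC and 787 and 650 in shELOVL5, or 102 and 70.9 CPM against 45.0 and 39.3 CPM. Both shELOVL5 libraries were below both shNC libraries, and the shNC libraries stood well apart from each other. Mean levels were 86.5 ± 22.0 and 42.2 ± 4.03 CPM (log2 fold change -1.04, SE 0.21, adjusted p = 0.0442). CCNE2 did not pass without shELOVL5 replicate 1 (log2 fold change -1.15) or replicate 2 (log2 fold change -0.94). Its log2 fold change was -0.75 without shNC replicate 1 and -1.28 without shNC replicate 2, so its size depended on the shNC library kept. CCNE1 (ENSG00000105173, chromosome 19, 29811898 to 29824308), the cyclin E1 gene, was low, with 207 and 248 counts in shNC and 192 and 182 in shELOVL5. Its levels of 12.2 and 15.5 CPM in shNC were above those of both shELOVL5 libraries (10.99 and 11.01 CPM), without passing the test (log2 fold change -0.33, 95% interval -0.74 to 0.086, adjusted p = 0.259). Without shNC replicate 2 its log2 fold change was -0.15.

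CCNE2 and CDK4 each share exon bases with a gene on the opposite strand. Of the exon bases of CCNE2, 37.05% lie also in exons of INTS8, a subunit gene of the Integrator complex, and 43.2% of those of CDK4 lie in exons of TSPAN31, a tetraspanin gene. The sources used here do not say whether counting used strand. INTS8 had 1253 and 1653 counts in shNC, higher where CCNE2 was lower, and 1984 and 1652 in shELOVL5. Summed with INTS8, which was tried after the data were seen, the counts were 2987 and 2791 in shNC and 2771 and 2302 in shELOVL5. The sum fell by 0.23 on the log2 scale (SE 0.063, adjusted p = 0.0253). Adding a gene that falls less than CCNE2 makes the fold of the sum smaller by construction, and more so if that gene rises. INTS8 itself averaged 88.4 ± 20.7 CPM in shNC and 107 ± 9.58 CPM in shELOVL5, and did not pass (log2 fold change 0.27, adjusted p = 0.479). TSPAN31 had 812 and 1011 counts in shNC, higher where CDK4 was lower, and 768 and 821 in shELOVL5. Its log2 fold change of -0.24 missed the threshold (adjusted p = 0.263). CDK4 summed with TSPAN31 gave 4554 and 4155 counts against 4125 and 3941, and this sum fell (log2 fold change -0.15, SE 0.043, adjusted p = 0.0322). How reads in the shared exons were divided between the genes was not tested.

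**Figure D2:**
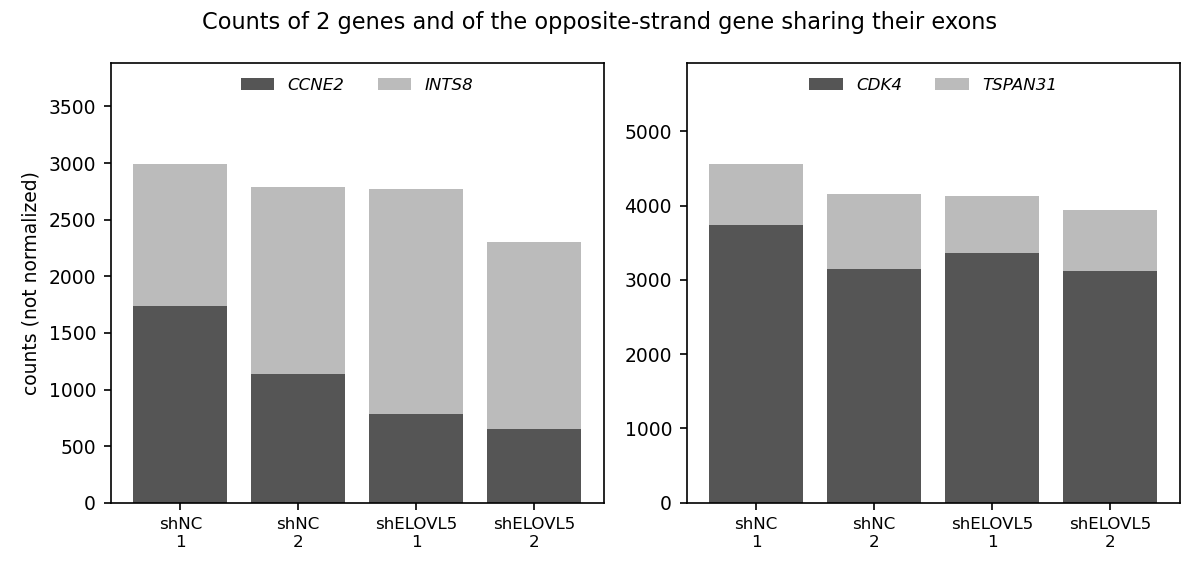
Counts per library (y axis, not normalized) of CCNE2 and CDK4 (dark bars) stacked with those of the opposite-strand genes that share their exons, INTS8 and TSPAN31 (light bars). In shNC replicate 2 the CCNE2 bar is lower and the INTS8 bar higher than in shNC replicate 1, with similar sums of 2987 and 2791 counts.

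CDK2 (ENSG00000123374, chromosome 12, 55966769 to 55972784), the kinase gene of cyclin E complexes, fell. Its counts were 3408 and 3178 in shNC and 2708 and 2594 in shELOVL5, or 201 and 198 CPM against 155 and 157 CPM. The replicates of each group lay close together and the groups far apart, at 199 ± 1.83 and 156 ± 1.44 CPM (log2 fold change -0.35, SE 0.046, adjusted p = 0.000453). With single libraries left out it lay between -0.37 and -0.35 and passed each time. Of its exon bases, 14.5% are shared with the opposite-strand gene AC025162.1, which had 76 to 108 counts per library.

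The KIP inhibitor gene CDKN1B (ENSG00000111276, chromosome 12, 12715058 to 12722371) encodes p27, which is controlled to a large part by degradation of the protein. Its levels were 114 and 115 CPM in shNC and 108 and 114 CPM in shELOVL5, from 1943, 1842, 1894 and 1886 counts in that order. The nearest libraries of the groups were almost equal, and the gene did not pass (log2 fold change -0.043, 95% interval -0.17 to 0.085, adjusted p = 0.671). CDKN2C (ENSG00000123080, chromosome 1, 50960745 to 50974633), which encodes the INK4 protein p18, had 2969 and 2721 counts in shNC and 3004 and 2738 in shELOVL5. Its levels of 175, 170, 172 and 166 CPM overlapped between groups (log2 fold change -0.028, 95% interval -0.14 to 0.080, adjusted p = 0.747). By total counts alone its log2 fold change was 0.0069, also short of the threshold. CDKN2D (ENSG00000129355, chromosome 19, 10566462 to 10569059), which encodes the INK4 protein p19, rose most of the 10 genes. It had 1262 and 1122 counts in shNC and 1800 and 1636 in shELOVL5, or 74.3 and 69.9 CPM against 103 and 99.0 CPM. Both shELOVL5 libraries were well above both shNC libraries, at 101 ± 2.82 against 72.1 ± 3.09 CPM (log2 fold change 0.49, SE 0.067, adjusted p = 0.000586). Against a null fold of 1.2, CDKN2D alone of the 10 genes passed (adjusted p = 0.0182).

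**Figure D3:**
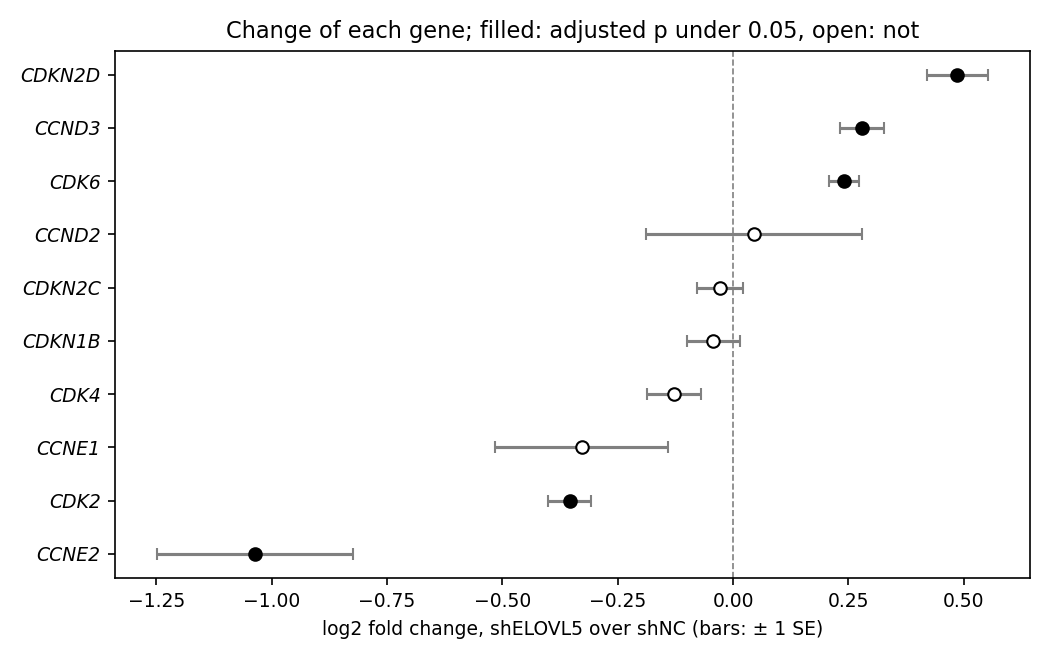
Log2 fold change of each gene in shELOVL5 over shNC (x axis, bars ± 1 SE), with filled points for adjusted p under 0.05. CDKN2D (0.49), CCND3 (0.28) and CDK6 (0.24) lie to the right of 0 and CDK2 (-0.35) and CCNE2 (-1.04) to the left, CCNE2 with a wide bar.

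Levels of different genes were compared as CPM per kilobase of annotated exon. In shNC the order was CDK6 (96.7), CDK4 (65.7), CCND3 (63.4), CDKN2C (51.9), CDK2 (51.2), CDKN2D (48.0), CDKN1B (40.8), CCNE2 (19.7), CCNE1 (5.42) and CCND2 (1.2 CPM per kilobase). The libraries of CDK4 and CCND3 overlapped in that order, as did those of CDKN2C and CDK2, while other neighbours did not. In shELOVL5 cells CCND3 (77.0) and CDKN2D (67.2) stood above CDK4 (60.1), and CDK2 (40.1) overlapped with CDKN1B (39.6 CPM per kilobase). These levels count every annotated exon, so a gene whose long exons are little used here is understated. Those of CCNE2 and CDK4 also rest on how reads in the exons shared with INTS8 and TSPAN31 were divided.

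Within the paralog pairs, the make-up of the INK4 transcripts shifted. CDKN2D made up 48.4% and 47.7% of the length-scaled sum of CDKN2C and CDKN2D in shNC and 56.9% in both shELOVL5 libraries. The INK4 sum was 102 and 97.6 CPM per kilobase in shNC and 120 and 116 in shELOVL5. CDK6 made up 57.8% and 61.4% of the CDK4 and CDK6 sum in shNC and 65.1% and 65.9% in shELOVL5, with sums of 165 and 160 against 174 and 175 CPM per kilobase. CCND3 made up 98.1% to 98.7% of the D-type cyclin sum in every library, and that sum was 61.7 and 67.6 CPM per kilobase in shNC and 79.1 and 77.3 in shELOVL5. For the E-type cyclins, CCNE2 made up 82.9% and 72.7% of the sum in shNC and 70.4% and 67.4% in shELOVL5, and the sum went from 28.0 and 22.2 to 14.6 and 13.3 CPM per kilobase. The CCNE2 and CDK6 shares rest on how reads in the exons that CCNE2 and CDK4 share with other genes were divided, which was not tested. The groups did not overlap in the shares of CDKN2D, CDK6 and CCNE2 and overlapped in that of CCND3. A two-sided exact permutation test over 4 libraries cannot go below p = 0.333, the value it gave for those 3 shares, and it gave p = 0.667 for CCND3.

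**Figure D4:**
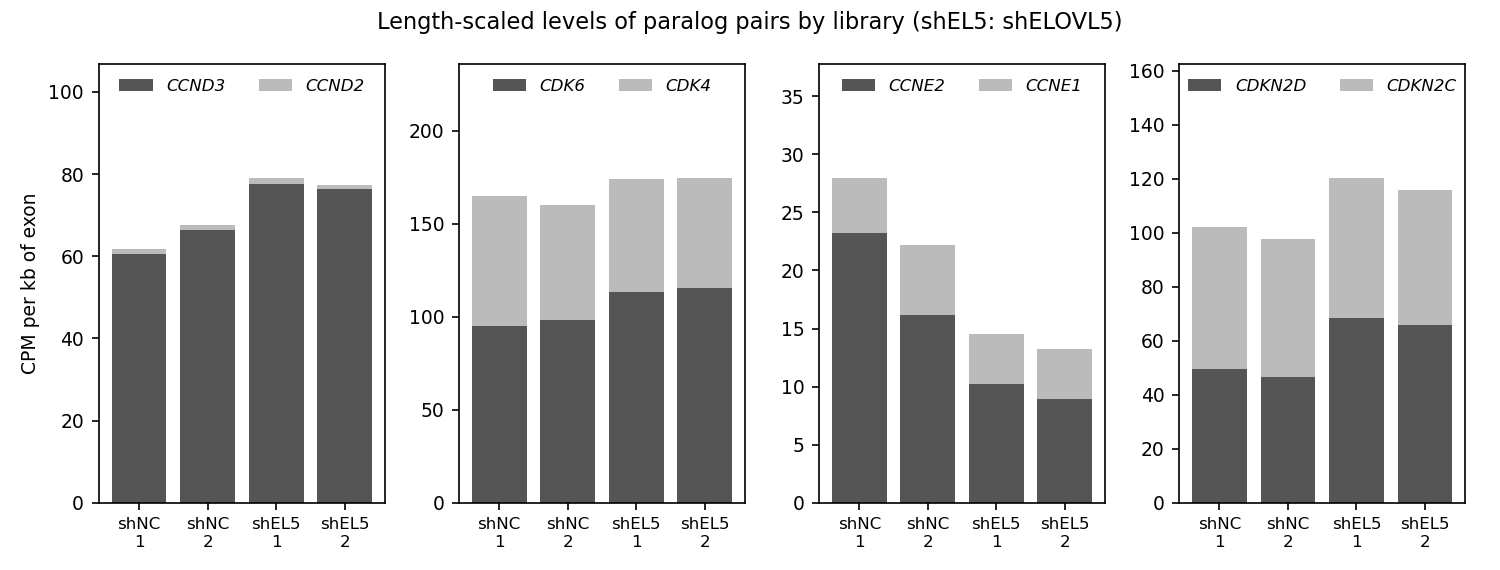
CPM per kilobase of exon (y axis) of each paralog pair, stacked, in the 2 shNC and 2 shELOVL5 (shEL5) libraries. The INK4 bars are taller in shELOVL5 by their CDKN2D part, the D-type cyclin bars are almost all CCND3, and the E-type cyclin bars are shorter in shELOVL5.

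The closest relatives of the 10 genes were scarce or changed by little. Of 9 relatives, 6 were tested and 0 passed by edgeR's quasi-likelihood test or by DESeq2, with 2 lower and 0 higher at an unadjusted p under 0.05. The mitotic kinase gene CDK1 went from 264 ± 5.53 to 246 ± 1.62 CPM, without overlap between the groups (log2 fold change -0.10, 95% interval -0.20 to -0.0064, adjusted p = 0.129). The KIP inhibitor gene CDKN1C was at 4.44 ± 0.378 and 2.32 ± 0.0328 CPM (log2 fold change -0.93, adjusted p = 0.0513) and passed with a filter of 1 CPM in 2 libraries (adjusted p = 0.0497) and with symbol-bearing genes only (adjusted p = 0.0435). CCND1, the cyclin D1 gene that T cells hardly use, had 11 and 24 counts in shNC and 2 and 11 in shELOVL5. CDKN2A, the INK4 gene that Jurkat cells are known to lack, and the germline cyclin gene CCNA1 had 0 counts in each library, which allows up to 3 counts or 0.172 to 0.187 CPM. CDKN2B had 0 and 3 counts in shNC and 0 in shELOVL5. CCNA2, CCNA1, CDKN2A and CDKN2B are named here after their values were seen. CCNA2, the cyclin A2 gene that acts after the G1 cyclins, had a log2 fold change of 0.015 (adjusted p = 0.847).

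Genes that the G1 kinases act through fell in part. Of 13 pocket protein, E2F and DP genes 4 fell and 1 rose, with a median log2 fold change of -0.12. For this list and those below, the shares over all tested genes were 9.22% higher and 11.2% lower, as given above. These lists too were chosen with earlier results of these data known, so their counts are no independent test. RB1, which encodes the retinoblastoma protein, fell from 287 ± 4.47 to 234 ± 8.90 CPM (log2 fold change -0.29, adjusted p = 0.00123), and the activator gene E2F1 from 130 ± 0.199 to 102 ± 1.15 CPM (adjusted p = 0.00134). E2F7, which encodes an E2F repressor, rose from 65.6 ± 0.402 to 100.3 ± 4.39 CPM (log2 fold change 0.61, adjusted p = 0.000138) and was the 1 gene of this list that rose. Of 26 S-phase genes under E2F control 17 fell and 0 rose by edgeR and by DESeq2 (19 and 0 at an unadjusted p under 0.05), with a median of -0.34. TYMS, CDC6 and CDC45 had the lowest log2 fold changes, at -0.62, -0.61 and -0.60, and TYMS, MCM7 (-0.47) and PCNA (-0.46) the smallest p-values. CDC6 and CDC45 are named here after their values were seen. Against a null fold of 1.2, 9 of these S-phase genes passed as lower. Of the pocket protein, E2F and DP genes, 0 passed as lower in that test and 1 as higher.

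Enzymes that set CDK activity moved in both directions. Of 10 genes for CDK activation and inhibitory phosphorylation, 3 rose and 2 fell (median log2 fold change 0.16). The phosphatase gene CDC25B rose from 166 ± 7.63 to 212 ± 14.8 CPM (adjusted p = 0.00218). MNAT1, the assembly factor gene of the CDK-activating kinase, rose from 26.2 ± 1.09 to 36.0 ± 2.69 CPM (adjusted p = 0.0137), though not without shNC replicate 2 (adjusted p = 0.0626) or shELOVL5 replicate 1 (adjusted p = 0.143). PKMYT1, an inhibitory kinase gene, fell from 127 ± 9.01 to 104 ± 6.94 CPM (adjusted p = 0.0149), though not without shNC replicate 1 (adjusted p = 0.0752) or shELOVL5 replicate 2 (adjusted p = 0.137). With 1 library left out, 1 or 2 of these genes rose and 0 or 1 fell.

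Among ubiquitin ligase genes for G1 cyclins and KIP inhibitors, 6 of 18 fell and 0 rose by edgeR, with a median log2 fold change of -0.12. At an unadjusted p under 0.05, 8 were lower and 0 higher, and DESeq2 called 5 lower and 0 higher. SKP2, which encodes the F-box protein that marks p27 for degradation, had 1701 and 1672 counts in shNC and 848 and 661 in shELOVL5. Both shELOVL5 libraries were far below both shNC libraries, at 102 ± 2.87 against 44.3 ± 6.03 CPM (log2 fold change -1.21, SE 0.093, adjusted p = 1.38e-05). CKS1B, whose product is the cofactor of SKP2 in p27 recognition, fell from 111 ± 2.99 to 82.1 ± 4.11 CPM (adjusted p = 0.000924), and the cullin gene CUL4B from 86.4 ± 2.92 to 64.4 ± 1.10 CPM (adjusted p = 0.00179). The CDKN1B transcript, as given above, did not pass, and protein was not measured.

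Of 25 genes for transcription factors and receptors that act upstream of the G1 genes, 12 fell and 3 rose, with a median log2 fold change of -0.20. LEF1, IKZF1 and TAL1, which encode lymphoid and T-ALL transcription factors, fell with log2 fold changes of -0.96, -0.64 and -0.68. MYC, named after its values were seen for its part in CDK4 and CCND2 transcription, fell from 177 ± 8.36 to 105 ± 4.54 CPM (adjusted p = 1.34e-05). The 3 that rose were RUNX3 (log2 fold change 0.80), FOXO4 (0.62), a gene of the FOXO family that activates CDKN1B, and MXI1 (0.33), which encodes a MYC antagonist. Of the same list FOXO1 (-0.44), FOXO3 (0.13) and the MYC antagonist genes MNT (-0.14) and MXD4 (-0.11) did not pass. These are named after their values were seen. MXI1 (adjusted p = 0.046) did not pass whichever of the 4 libraries was left out, and FOXO4 did not pass without shELOVL5 replicate 1 (adjusted p = 0.0602). With shELOVL5 replicate 1 left out, 9 of these genes fell and 1 rose.

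**Figure D5:**
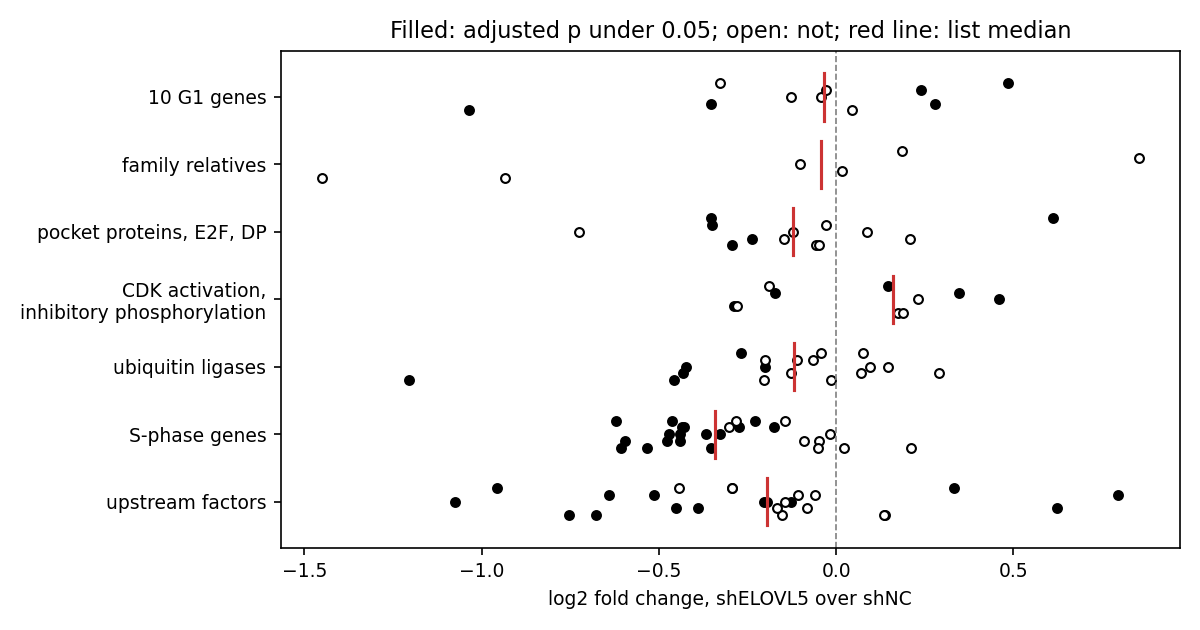
Log2 fold change of each tested gene (x axis) in the 10 G1 genes and 6 surrounding lists, with filled points for adjusted p under 0.05 and red lines for list medians. The S-phase genes lie mostly to the left of 0 (median -0.34), while the 10 G1 genes lie on both sides (median -0.036).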

How the data were processed

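The authors deposited whole-number read counts per Ensembl gene, not normalized, for 4 libraries of J.gamma1 cells. Per the submitters' processing notes, HISAT2 2.2.0, StringTie and hg38 were used. The sources used here do not give the annotation, the counting step or its use of strand. Symbols came from a gene name table (56105 of 64252 identifiers), and coordinates and merged exon lengths from GENCODE release 29. Groups and replicate numbers came from the sample titles.

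Genes were kept by filterByExpr (minimum count 10), scaled by TMM and fitted with edgeR 4.0.16 in R 4.3.3 (glmQLFit with robust=TRUE, glmQLFTest, two-sided, group as the only term), with Benjamini-Hochberg adjustment over all tested genes and a threshold of 0.05. Intervals are 95% intervals from that fit. Its calls were tested on simulated data. The 14 alternatives were RLE factors, total counts only, no filter, 1 CPM in 2 libraries, DESeq2 1.42.0, limma-voom (limma 3.58.1), a replicate block, robust=FALSE, genes with a symbol only, glmTreat with a null fold of 1.2, and each library left out in turn. Sums with overlapping genes were chosen after seeing the data. The members and lists were chosen with earlier results of these data known. All 10 members were named, with up to 3 genes of smallest p per list and up to 3 genes against the direction of their list. Marker genes, and genes said to be named after their values were seen, fall outside that rule. A count of 0 allows 3 counts, for counting error only. The labels give no batch.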

Additional observations from a re-analysis of the deposited data

How the results depend on the processing

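Across the 14 alternatives CCND3, CDK6, CDKN2D and CDK2 kept their direction, and they passed in 13 of them, the exception being the null fold of 1.2, where CDKN2D alone passed. That setting gave 1 gene higher and 0 lower of the 10, and 408 and 641 over all genes. With no low-count filter 899 genes rose. Leaving out 1 library gave 696 to 1347 genes higher and 1176 to 1616 lower over all genes, and 3 higher and 1 to 3 lower of the 10, with the lowest count where either shELOVL5 library was left out and CCNE2 was lost. The same replicate number in both groups is not said to mark a shared culture or day, and deviations of same-numbered libraries correlated at 0.055 over 10793 genes. With the replicate block 1551 genes rose and 1902 fell, and of the 10 genes 3 rose and 2 fell. Without length scaling the CDK6 share differed between groups by 2.96 percentage points in place of 5.94, and that of CDKN2D by 7.92 in place of 8.88, by construction of the share. Leaving out 1 library gave differences of 4.14 to 7.73 points for CDK6, 8.5 to 9.26 for CDKN2D, 0.023 to 0.54 for CCND3 and -14.0 to -3.77 for CCNE2. With 1 library left in a group, that library is assumed to vary like the other group. The SE was largest for CCND2 (0.233, 121 to 182 counts per library) and CCNE2 (0.213), whose 95% interval of -1.63 to -0.44 was the widest of the 10.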
